A study of Mus musculus with 18 samples.

Results

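White adipocyte identity and lipid storage genes were followed across M/D-driven mammary tumors, exposed but tumor-free hyperplastic glands and normal mammary tissue of female C57Bl/6 mice. The set is a list of 38 genes sorted by role, and 34 of them had a probe set (transcript cluster) whose only annotated gene is the member, out of 27030 genes tested. The other 4 (Cfd, Acsl1, Adrb3 and Hcar1) were not analysed here. Each tissue was hybridised to an Affymetrix whole-transcript array, and each group held 6 arrays. Tumor-bearing mice had received a 50 mg pellet of medroxyprogesterone acetate (MPA, a progestin) designed to last 90 days and 6 oral doses of 7,12-dimethylbenz[a]anthracene (DMBA, a carcinogen; 200 uL at 5 mg/mL each), begun when they were 6 to 9 weeks old. Their tumors were taken at 0.7 to 1 cm2. Hyperplastic glands had been exposed to the same MPA and DMBA and had formed no tumor. The paper says this of the glands and does not say whether their mice bore tumors elsewhere. Mice that supplied normal glands had been given neither of the agents, and their own age is not stated, since the methods give an age range only for the study's mice as a whole. Effects of MPA, of DMBA and of age therefore cannot be told apart between exposed and normal glands, and whether each numbered array is a separate mouse is not stated in the labels, so that p values measure the spread between these arrays. Removal of the lymph node from the glands is not stated either.

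The mammary gland of the mouse is a tree of epithelial ducts embedded in a pad of white fat. A white adipocyte stores triglyceride in a large droplet: it takes fatty acids out of lipoproteins, joins them to glycerol, coats the droplet with perilipins and other proteins, and releases the fatty acids again through a chain of lipases when energy is needed. The nuclear receptor PPARG and the factor C/EBP alpha drive this program, and the cells secrete hormones such as adiponectin and leptin. In bulk tissue, fewer fat cells and less RNA per fat cell cannot be told apart.

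Values are the deposited log2 intensities, on which a difference of 1 is a 2-fold difference in signal. Levels of different genes are not comparable, because each has its own probes. The array medians lay between 5.31 and 5.51. The mean of 95% of 1078 olfactory receptor genes, which mammary tissue is not known to use, was below 5.36, and this level served as the detection level; 63.1% of all genes had a mean above it. All members had a mean above it in hyperplastic glands and in normal glands (34 of 34 each), and 33 of 34 did in tumors.

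Fat cell genes were lower in tumors than in both kinds of gland. Between tumors and normal glands, 32 of the 34 members fell, none rose, and Hp and Plin2 did not pass the test (limma, adjusted p under 0.05). Over all genes, 12.7% fell in this comparison and 19.5% rose. The median change of the members was -2.52 on the log2 scale, against 0.04 over all genes. Between tumors and hyperplastic glands the same count of 32 fell, none rose, and Hp and Plin2 again did not pass, against 8.57% of all genes that fell and 11.9% that rose; the median change was -2.56, against 0.04 over all genes. These comparisons share the tumor arrays. In 31 of 34 members every tumor lay below every normal gland, which held for 7% of all genes, and in 31 of 34 every tumor lay below every hyperplastic gland, which held for 4.05% of all genes. At the threshold named in the methods, a log2 change over 2 in size with an unadjusted p under 0.05, 23 members passed against normal glands, as did 1% of all genes, and 26 against hyperplastic glands, as did 0.536% of all genes. The 3 members with overlapping groups were Hp, Plin2 and Slc2a4 in both cases.

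**Figure D1:**
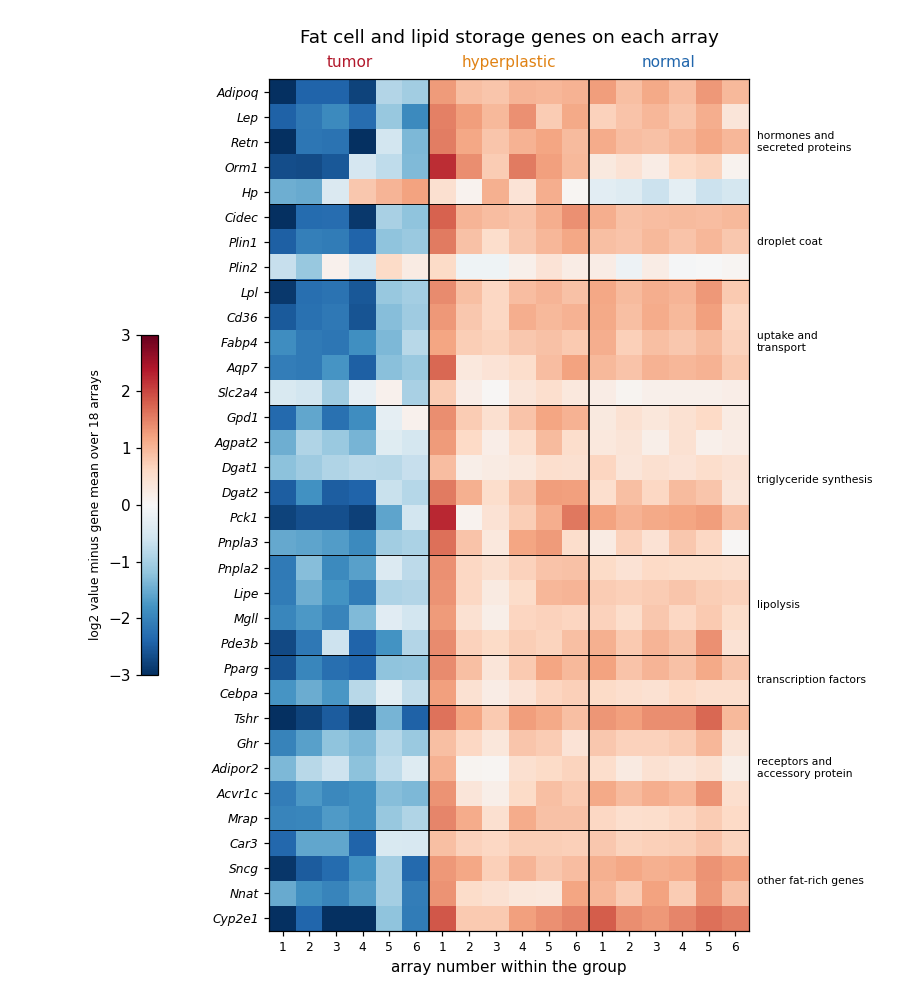
Log2 value of each of the 34 members on each of the 18 arrays, minus the gene's mean over all arrays (color scale ending at -3 and 3), with genes grouped by role down the page and tumor, hyperplastic and normal arrays from left to right. Tumor arrays are low in nearly all genes, with Hp and Plin2 as exceptions, and tumors 5 and 6 are paler than tumors 1 to 4.

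Among hormones and other secreted proteins, the adipokines fell in tumors. Adipoq encodes adiponectin, the circulating hormone of fat cells that sensitizes tissues to insulin. Its log2 value was 6.13 at the lowest, 6.77 at the median and 8.30 at the highest in tumors, against 10.02, 10.19 and 10.45 in hyperplastic glands and 10.08, 10.23 and 10.48 in normal glands. No tumor came near a gland: the highest tumor was 1.78 below the lowest normal gland. The change was -3.11 ± 0.29 (SE) against hyperplastic glands (adjusted p = 1.23e-06) and -3.18 ± 0.29 against normal glands (adjusted p = 3.71e-07).

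Lep encodes leptin, the hormone that signals fat stores to the brain. It had a lowest value of 5.35, a median of 5.73 and a highest value of 6.63 in tumors, against 8.52, 8.96 and 9.27 in hyperplastic glands and 8.13, 8.61 and 8.86 in normal glands. The lowest tumor was just below the detection level, and the groups of glands overlapped each other but no tumor. Leptin RNA was 8.80-fold lower in tumors than in hyperplastic glands (adjusted p = 1.83e-08) and 6.87-fold lower than in normal glands (adjusted p = 2.07e-08). Retn, which encodes resistin, a hormone of mouse fat cells, changed by -3.25 ± 0.34 against hyperplastic glands and by -3.15 ± 0.34 against normal glands. Tumor 5 was the highest tumor in all 3 adipokines.

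Orm1 and Hp encode orosomucoid and haptoglobin, plasma proteins of the acute phase that liver and fat both make. Orm1 has close paralogs in the mouse whose RNA its probes may share. It had a lowest value of 5.40, a median of 6.15 and a highest value of 7.58 in tumors, against 8.83, 9.39 and 10.29 in hyperplastic glands and 8.19, 8.44 and 8.75 in normal glands. Its change was -3.10 ± 0.36 against hyperplastic glands (adjusted p = 1.08e-05) and -2.13 ± 0.36 against normal glands (adjusted p = 0.000151). Among liver markers, Apoa1, Apoa2, Ahsg and Cyp3a11 had means below the detection level in every group, and Alb did in tumors alone. Apoc3, Fgb, Fgg and Hpx had means above it in every group. Of 9 measured, 1 fell in tumors against normal glands (Alb) while 1 rose (Cyp3a11). Against hyperplastic glands 1 fell (Alb) and none rose. Alb changed by -1.997 ± 0.195 against normal glands and by -2.711 ± 0.195 against hyperplastic glands. Between hyperplastic and normal glands Alb changed by 0.714 ± 0.195 (limma, adjusted p = 0.0746), and none of the 9 was called. A link of Alb to Orm1 or Hp was not tested.

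Hp did not follow the other members. Its values in tumors 1 to 6 were 8.19, 8.14, 9.23, 10.47, 10.67 and 10.86, against 9.71 at the lowest, 10.10 at the median and 10.75 at the highest in hyperplastic glands and 9.00, 9.20 and 9.36 in normal glands. Tumors 4 to 6 were thus above every normal gland, tumors 1 and 2 below every normal gland, and tumor 3 within their range. Its change was -0.60 ± 0.41 against hyperplastic glands (adjusted p = 0.362) and 0.41 ± 0.41 against normal glands (adjusted p = 0.4995), with a 95% interval of -0.46 to 1.28 for the second. Hp had the largest SD of the members among tumors (1.25).

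**Figure D2:**
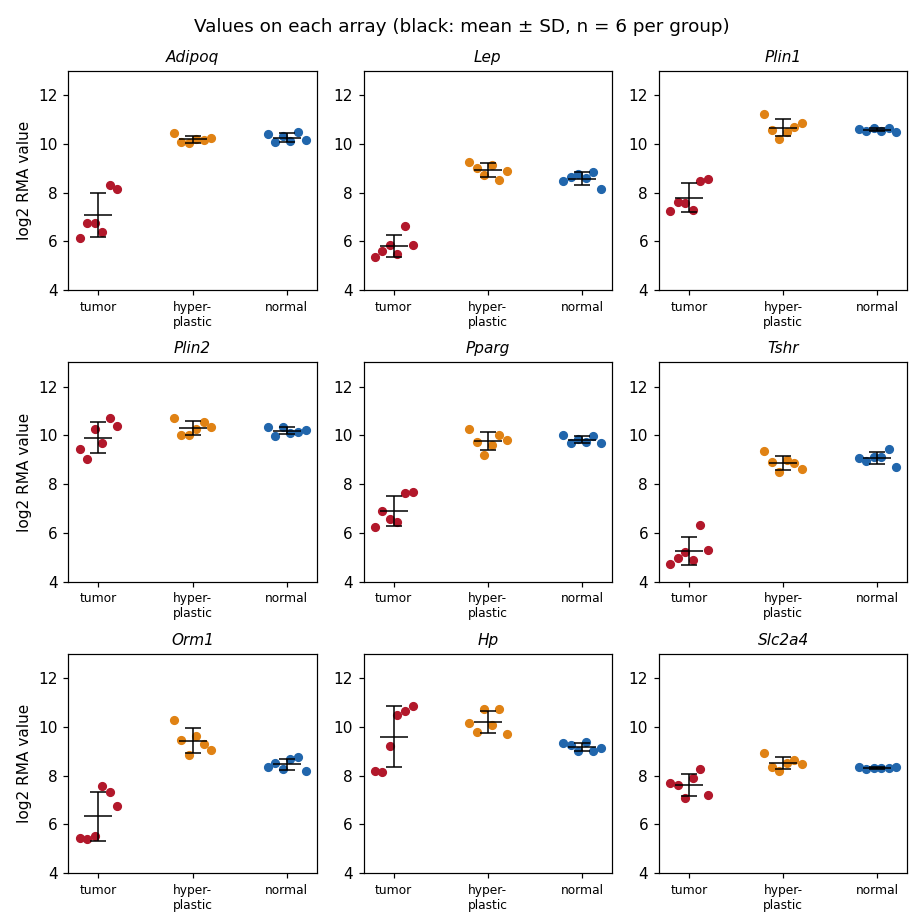
Log2 values of 9 members on each array, with tumors on the left, hyperplastic glands in the middle and normal glands on the right (points, arrays; black bars, mean ± SD, n = 6 per group). Hp and Plin2 tumors span the values of the glands, Slc2a4 tumors reach into them, and in the other 6 genes every tumor lies below every gland.

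Proteins of the droplet surface split into a pair that fell and 1 that did not pass. Plin1 is the perilipin of fat cells and guards their droplet from lipases, Cidec helps droplets to fuse into a single large one, and Plin2 coats small droplets in most cell types. Because Plin1 and Plin2 share a function and differed in these data, and Lep is a fat hormone with a known C/EBP site, sequence from the 250 bases before the start sites in the RefSeq promoter table (GRCm38.p6) is shown, read in the direction of transcription, with matches to the C/EBP motif TTGCNNAA on either strand in capitals. For Plin1 and Plin2 the table uses a start inside the outermost bounds of the annotated gene, and the 128 and 158 bases of their windows that lie within the gene are left out. The stretches shown are chr6:29059971-29060220 on the plus strand for Lep, chr7:79732905-79733026 on the minus strand for Plin1 and chr4:86670218-86670309 on the minus strand for Plin2.
Lep: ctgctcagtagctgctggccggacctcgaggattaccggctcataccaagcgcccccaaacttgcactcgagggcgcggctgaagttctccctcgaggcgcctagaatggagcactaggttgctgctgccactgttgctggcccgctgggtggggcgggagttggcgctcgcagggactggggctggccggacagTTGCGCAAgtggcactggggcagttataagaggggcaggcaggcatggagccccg
Plin1: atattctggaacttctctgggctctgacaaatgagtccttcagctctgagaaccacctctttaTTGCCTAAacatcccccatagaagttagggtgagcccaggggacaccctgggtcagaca
Plin2: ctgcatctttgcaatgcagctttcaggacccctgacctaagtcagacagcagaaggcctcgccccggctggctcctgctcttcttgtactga
The Lep stretch held 1 match and the Plin1 stretch 1, with another Plin1 match in the part of its window within the gene, and the Plin2 window held none. The window of Adipoq, which fell in tumors like Lep and Plin1, held none either and is not shown. RefSeq promoters were matched for 22 of the 34 members, and 4 of these (Cidec, Lep, Plin1 and Pparg) held the motif in any of their promoters, or 4 of 30 member promoters, against 9.56% of all 32851 promoters of this length. The direct repeat of AGGTCA with a spacer of 1 base (DR1), the textbook element of PPARG with its partner RXR, was searched on both strands and had no match in the 30 member promoters, against 0.03% of all promoters. At that share 30 promoters are too few to expect a match, and sequence outside the 250 bases was not searched. No conclusion about PPARG sites is drawn from it.

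In the arrays, Plin1 had a lowest value of 7.24, a median of 7.60 and a highest value of 8.57 in tumors, against 10.21, 10.62 and 11.23 in hyperplastic glands and 10.50, 10.56 and 10.67 in normal glands. Its change was -2.88 ± 0.21 against hyperplastic glands (adjusted p = 1.04e-07) and -2.79 ± 0.21 against normal glands (adjusted p = 5.81e-08). All tumors lay below all glands. Cidec showed the same separation, with 6.67, 7.50 and 8.84 in tumors, against 10.66, 10.87 and 11.58 in hyperplastic glands and 10.68, 10.75 and 10.90 in normal glands. It was 9.93-fold lower than in hyperplastic glands and 8.53-fold lower than in normal glands (adjusted p = 6.77e-07 and 5.38e-07).

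Plin2 overlapped in all groups. Its values in tumors 1 to 6 were 9.44, 9.01, 10.26, 9.67, 10.71 and 10.38, against 10 to 10.71 with a median of 10.32 in hyperplastic glands and 9.99 to 10.35 with a median of 10.16 in normal glands. Tumors 1, 2 and 4 were below every gland, while tumors 3, 5 and 6 lay among or above them. The change was -0.41 ± 0.22 against hyperplastic glands (95% interval -0.88 to 0.06, adjusted p = 0.2349) and -0.27 ± 0.22 against normal glands (95% interval -0.74 to 0.20, adjusted p = 0.3941).

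Genes of lipid and sugar uptake and transport all fell, 5 of 5 in each tumor comparison. Lpl, the lipase on capillary walls that frees fatty acids from lipoproteins, had 7.48, 8.14 and 9.35 as its lowest, median and highest values in tumors, against 11.01, 11.29 and 11.79 in hyperplastic glands and 11.16, 11.44 and 11.69 in normal glands. Its change was -2.98 ± 0.26 against hyperplastic glands (adjusted p = 4.86e-07) and -3.07 ± 0.26 against normal glands (adjusted p = 1.41e-07). Cd36, the membrane receptor through which fatty acids enter, changed by -2.94 ± 0.23 and -2.97 ± 0.23 in the same order of comparisons.

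Fabp4, the fatty acid carrier of the fat cell cytoplasm, changed by -2.54 ± 0.18 against hyperplastic glands and by -2.56 ± 0.18 against normal glands. Aqp7, the channel that lets glycerol out, changed by -2.64 ± 0.24 against hyperplastic glands and by -2.74 ± 0.24 against normal glands. In both genes every tumor was below every gland. Cd36, Fabp4 and Lpl are also made by capillary endothelium or macrophages, and 10 of 11 measured markers of blood endothelium fell in tumors against normal glands, with a mean level of 7.72 to 8.28 in tumors, 8.48 to 9.00 in hyperplastic glands and 8.74 to 8.93 in normal glands; the part of endothelium in these changes was not tested.

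Slc2a4 encodes GLUT4, the glucose transporter that insulin brings to the surface of fat and muscle cells, and had the smallest of the called changes. It ranged from 7.09 to 8.29 with a median of 7.65 in tumors, from 8.19 to 8.93 with a median of 8.50 in hyperplastic glands and from 8.25 to 8.37 with a median of 8.32 in normal glands. Tumor 5, at 8.29, reached into both groups of glands, and the other 5 tumors were below every gland. The change was -0.89 ± 0.16 against hyperplastic glands (adjusted p = 0.000741) and -0.69 ± 0.16 against normal glands (adjusted p = 0.00285). Skeletal muscle, which also makes GLUT4, differed between arrays: its 10 measured markers had a mean level of 6.52 to 9.08 in tumors, 6.78 to 10.39 in hyperplastic glands and 6.81 to 9.27 in normal glands, and its part in the Slc2a4 values was not tested.

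Members listed under triglyceride synthesis fell as well, 6 of 6 in each tumor comparison, with medians of -2.37 against hyperplastic glands and -1.84 against normal glands. Pck1 makes the glycerol backbone in fat cells that lack glucose. Its lowest, median and highest values were 6.84, 7.00 and 9.10 in tumors, against 9.76, 10.56 and 11.91 in hyperplastic glands and 10.58, 10.81 and 10.91 in normal glands. Tumor 6 was highest and tumor 5, at 8.06, was next, and the change was -3.20 ± 0.38 against hyperplastic glands (adjusted p = 1.38e-05) and -3.30 ± 0.38 against normal glands (adjusted p = 3.53e-06).

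Agpat2, which adds the second fatty acid to the backbone, changed least in this role against normal glands, and Dgat1 against hyperplastic glands. Agpat2 had 8.17, 8.63 and 9.27 in tumors, against 9.83, 10.20 and 10.92 in hyperplastic glands and 9.78, 9.91 and 10.10 in normal glands. It fell 3.11-fold against hyperplastic glands and 2.37-fold against normal glands (adjusted p = 1.15e-05 and 5.86e-05). Dgat1 and Dgat2 both catalyze the last step of triglyceride synthesis. Dgat2 changed by -2.86 ± 0.29 against hyperplastic glands and by -2.48 ± 0.29 against normal glands, and Dgat1 by -1.36 ± 0.11 and -1.40 ± 0.11. Dgat1 also had the smallest SD of the members among tumors (0.192).

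Gpd1, which makes glycerol 3-phosphate from a glycolytic intermediate, spanned 7.94 to 10.39 in tumors and changed by -2.32 ± 0.34 against hyperplastic glands and -1.75 ± 0.34 against normal glands. Tumor 6, at 10.39, was the nearest to the lowest normal gland at 10.51. Pnpla3, a droplet protein related to the main fat lipase, changed by -2.42 ± 0.21 and -1.92 ± 0.21.

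Genes of lipolysis fell together with those of storage, 4 of 4 in each tumor comparison. Pnpla2 encodes ATGL, the lipase of the first step, Lipe hormone-sensitive lipase of the second and Mgll the monoglyceride lipase of the last. Pnpla2 had 8.42, 9.09 and 10.13 as its lowest, median and highest values in tumors, against 11.03, 11.30 and 11.92 in hyperplastic glands and 10.98, 11.09 and 11.13 in normal glands. All tumors were below all glands, by 4.50-fold on average against hyperplastic glands and 3.71-fold against normal glands (adjusted p = 4.68e-06 and 6.47e-06).

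Lipe changed by -2.35 ± 0.21 against hyperplastic glands and by -2.30 ± 0.21 against normal glands, and Mgll by -1.95 ± 0.25 and -1.97 ± 0.25. Pde3b, the phosphodiesterase through which insulin restrains lipolysis, changed most of the 4. It had 5.71, 6.44 and 7.80 in tumors, against 8.99, 9.13 and 9.83 in hyperplastic glands and 8.86, 9.37 and 9.78 in normal glands, a change of -2.59 ± 0.29 and of -2.69 ± 0.29 (adjusted p = 1.01e-05 and 2.25e-06). Its order among tumors differed from that of most members, since tumor 3 was highest at 7.80.

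Both transcription factors fell. Pparg had 6.24, 6.73 and 7.66 in tumors, against 9.19, 9.78 and 10.26 in hyperplastic glands and 9.67, 9.79 and 10.03 in normal glands. Its change was -2.87 ± 0.23 against hyperplastic glands (adjusted p = 1.74e-07) and -2.92 ± 0.23 against normal glands (adjusted p = 6.73e-08). Cebpa, which encodes C/EBP alpha and is also used by other cells such as myeloid cells, had 7.42, 8.03 and 8.90 in tumors, against 9.41, 9.74 and 10.41 in hyperplastic glands and 9.65, 9.70 and 9.79 in normal glands. It changed by -1.75 ± 0.22 against hyperplastic glands (adjusted p = 2.51e-05) and by -1.67 ± 0.22 against normal glands (adjusted p = 1.40e-05), with every tumor below every gland in both genes.

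Receptors and their accessory protein fell in tumors, 5 of 5 in each comparison. Tshr, the thyrotropin receptor, which rodent fat cells carry outside the thyroid, had values of 4.74, 4.96, 5.23, 4.88, 6.34 and 5.30 in tumors 1 to 6, against 8.51 to 9.36 with a median of 8.88 in hyperplastic glands and 8.69 to 9.44 with a median of 9.09 in normal glands. All tumors but tumor 5 were below the detection level, so that the change, -3.63 ± 0.22 against hyperplastic glands and -3.82 ± 0.22 against normal glands (adjusted p = 1.83e-08 and 7.78e-09), is given without a fold.

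Acvr1c, the activin receptor ALK7 of fat cells, changed by -2.39 ± 0.19 against hyperplastic glands and by -2.70 ± 0.19 against normal glands, and its lowest tumor, at 5.35, was also below the detection level. Mrap, the accessory protein that carries the corticotropin receptor to the membrane, changed by -2.57 ± 0.18 and -2.19 ± 0.18, and Ghr, the growth hormone receptor, by -2.0 ± 0.16 and -2.07 ± 0.16. Adipor2, a receptor for adiponectin that many cells express, changed least in this role: it had 7.82, 8.38 and 8.79 in tumors, against 9.23, 9.70 and 10.21 in hyperplastic glands and 9.34, 9.57 and 9.70 in normal glands. It fell 2.54-fold against hyperplastic glands and 2.35-fold against normal glands (adjusted p = 2.63e-05 and 2.09e-05).

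The remaining fat-rich genes have less settled roles in storage. Cyp2e1, a cytochrome P450 that oxidizes small molecules and is known from liver, had the largest change of the members. Its lowest, median and highest values were 6.12, 7.43 and 8.97 in tumors, against 10.96, 11.47 and 12.04 in hyperplastic glands and 11.46, 11.67 and 11.98 in normal glands. The change was -4.04 ± 0.37 against hyperplastic glands (adjusted p = 9.25e-07) and -4.30 ± 0.37 against normal glands (adjusted p = 1.78e-07).

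Car3, a carbonic anhydrase abundant in white fat, changed least in this role. It had 9.99, 10.84 and 11.94 in tumors, against 13.02, 13.12 and 13.30 in hyperplastic glands and 13.06, 13.13 and 13.25 in normal glands. Its change was -2.21 ± 0.27 against both groups. Sncg, the synuclein found in fat cells and neurons, changed by -3.14 ± 0.22 against hyperplastic glands and -3.31 ± 0.22 against normal glands, and Nnat, a small membrane protein of endocrine cells and fat, by -2.39 ± 0.20 and -2.67 ± 0.20.

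**Figure D3:**
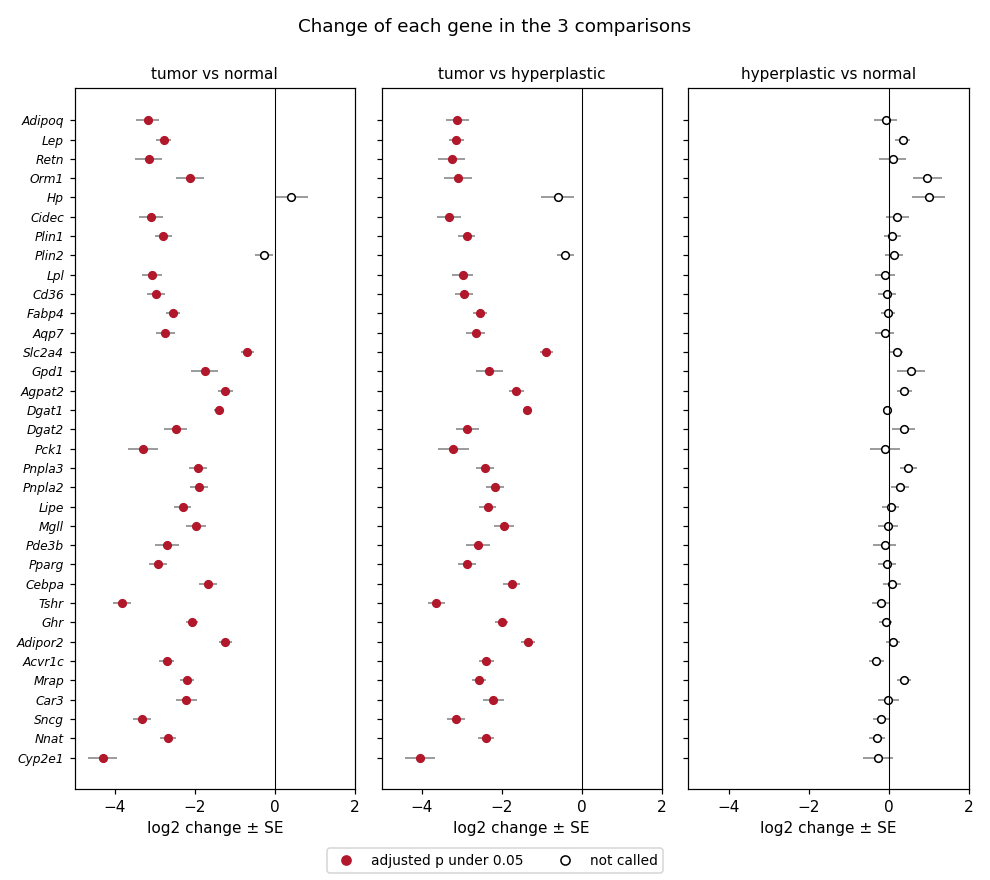
Log2 change ± SE of each of the 34 members for tumors against normal glands, tumors against hyperplastic glands and hyperplastic against normal glands (limma on 18 arrays; filled points, adjusted p under 0.05; open points, not called). In the first 2 panels, 32 members are filled and lie left of 0, and Hp and Plin2 are open. In the third panel all 34 are open, with Orm1 and Hp farthest to the right.

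Set against Adipoq on the same array, members differed in how far they fell. Against normal glands, 17 of 33 fell less than Adipoq or rose, against 99.6% of all genes. Adipoq itself changed by -3.18, against a median of 0.04 over all genes, so nearly any gene would fall less than it. The members were listed as fat genes, so no conclusion is drawn from their lower share. Cyp2e1 alone fell further than Adipoq past the threshold, by -1.13 in the difference of log2 changes (adjusted p = 0.000851), as 0.0222% of all genes did. Against hyperplastic glands, 16 fell less (99.8% of all genes) and Cyp2e1 again fell further (adjusted p = 0.00594 for Cyp2e1, 0.0037% of all genes). In this fit every member had the same SE, 0.34. These counts and p values therefore do not measure each gene's own spread between arrays.

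Hyperplastic and normal glands were then compared, to ask whether the fat genes differed in exposed glands that had formed no tumor. None of the 34 members passed the test, against 0.655% of all genes that fell and 1.01% that rose, and the median change was 0.02, against 0.01 over all genes. At an unadjusted p under 0.05, 4 members differed (Orm1, Hp, Pnpla3 and Mrap), all higher in hyperplastic glands, against 13.6% of all genes in either direction. None passed the threshold of the methods either, as 0.0259% of all genes did. The intervals of this fit rest on a spread shared with tumors, where members varied most. For Adipoq the SD was 0.91 in tumors, 0.151 in hyperplastic and 0.17 in normal glands. The intervals are thus not those of the compared glands alone. Adipoq changed by -0.07 (95% interval -0.68 to 0.54), Plin1 by 0.09 (-0.36 to 0.54), Lpl by -0.09 (-0.63 to 0.45), Pparg by -0.05 (-0.52 to 0.43) and Lep by 0.36 (-0.03 to 0.74).

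Orm1 and Hp were the 2 members in which every hyperplastic gland lay above every normal gland, which held for 2.42% of all genes. The change was 0.97 ± 0.36 for Orm1 (95% interval 0.22 to 1.72, adjusted p = 0.1979) and 1.01 ± 0.41 for Hp (0.14 to 1.88, adjusted p = 0.2714). In both genes the shared estimate of the spread includes tumors, which varied most. A fit on hyperplastic and normal arrays alone called 3 members higher, namely Hp (adjusted p = 0.00642), Orm1 (0.0144) and Gpd1 (0.0232), where it called 3.71% of all genes higher and 1.93% lower. With array weights, Orm1 alone was called (adjusted p = 0.0298). Gpd1 had 10.76 to 11.67 in hyperplastic glands and 10.51 to 10.86 in normal glands, so that these groups overlapped, and its change was 0.56 ± 0.34.

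Members varied more among exposed tissues than among normal glands. The median SD of the members was 0.626 for tumors, 0.336 for hyperplastic and 0.142 for normal glands, against 0.143, 0.105 and 0.115 over all genes. The SD was larger in tumors than in normal glands for 34 of 34 members, and larger in hyperplastic than in normal glands for 32.

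Much of this variation was shared by members of 1 array. A fat gene level was taken for each array as the mean over the members, each centered on its mean over 18 arrays, as a description. It was -2.21, -1.84, -1.81, -1.89, -0.81 and -0.98 in tumors 1 to 6, against 0.50 to 1.36 in hyperplastic glands and 0.58 to 0.87 in normal glands. Tumors 5 and 6 were thus the highest of the tumors, and tumor 5 was the highest tumor in 18 members and tumor 6 in 14, while tumor 1 was the lowest in 21. Tumor 6 also had high Ucp1, an uncoupling protein and brown fat marker, at 9.24, against 4.42 to 4.61 in the other 5 tumors. Of the other brown fat markers, Dio2, Cox8b, Cox7a1, Prdm16 and Ebf2 were also highest there among tumors, while Ppargc1a, Zic1 and Lhx8 were not. Ppargc1a, Prdm16, Ebf2 and Lhx8 were lower in tumor 6 than in every normal gland. Many members are genes of brown fat cells too. The part of brown fat in the values of tumor 6 was not tested, and without tumor 6 the count called lower was still 32 in each tumor comparison. Hyperplastic gland 1 was the highest of its group in 33 of 34 members and hyperplastic gland 3 the lowest in 26.

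Markers of other cells were read on the same arrays. The mean of 13 measured luminal epithelial markers was 7.43 to 10.16 in tumors, against 8.55 to 9.34 in hyperplastic glands and 8.51 to 8.84 in normal glands, and 3 of the 13 rose in tumors against normal glands, a share near the 19.5% of all genes that rose, while none fell. None of the 13 was called between tumors and hyperplastic glands. Tumor 3 had both the lowest luminal level, 7.43, and the highest macrophage level, 9.60, with a fat gene level like that of tumors 2 and 4. All 8 measured markers of B and T cells fell in tumors against normal glands, with a median of -2.12, and their level was 6.02 to 7.04 in tumors, 7.61 to 9.12 in hyperplastic glands and 7.67 to 8.70 in normal glands. The part of these cells in the fat gene values was not tested. Without tumor 3, tumor 6 and hyperplastic gland 3, 32 members were still called lower in each tumor comparison.

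**Figure D4:**
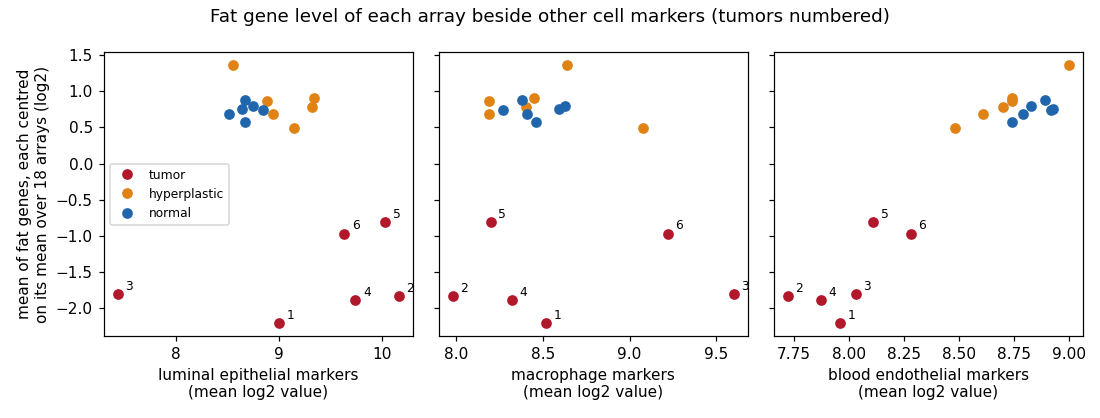
Fat gene level of each array (mean of 34 members, each centered on its mean over 18 arrays, log2) against the mean log2 level of luminal epithelial, macrophage and blood endothelial markers, with tumors numbered. The 6 tumors lie between -2.21 and -0.81 on the fat axis, below all 12 glands, and spread widely on the luminal axis.

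Beyond the members, 40 of 59 further genes of adipocytes and lipid storage were measured. Of these, 23 fell and 2 rose in tumors against normal glands, with a median of -0.56, and 23 fell and 1 rose against hyperplastic glands, with a median of -0.58. Npr3, the clearance receptor for natriuretic peptides, changed by -3.20 ± 0.19 against normal glands, Trarg1, a partner of GLUT4 vesicles, by -2.54 ± 0.29 and Aoc3, an amine oxidase of the fat cell surface, by -2.54 ± 0.24. Cebpb, a C/EBP factor of many cell types, rose by 0.32 ± 0.11, and Slc27a4, a fatty acid transport protein also found in epithelia, by 0.32 ± 0.08. Between hyperplastic and normal glands, Acly, which makes acetyl-CoA for fatty acid synthesis, was the 1 gene called, at 0.96 ± 0.24 (adjusted p = 0.0496).

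Preadipocyte and fat stroma markers were mixed: 4 of 8 measured fell and 2 rose in tumors against normal glands, with a median of -0.37. The largest fall was that of Dpp4, a peptidase of interstitial progenitor cells, at -2.33 ± 0.19, followed by Ebf2, a factor of fat progenitors, at -1.62 ± 0.14, while Cd24a, which epithelial cells also carry, rose by 0.80 ± 0.23. The level of 9 measured brown fat markers was 6.98 in tumor 6, against 5.82 to 6.12 in the other tumors, 6.20 to 6.57 in hyperplastic glands and 6.09 to 6.31 in normal glands. Outside tumor 6, Ucp1 was above the detection level in hyperplastic glands 1 and 6 alone, at 5.43 and 5.63. In tumors against normal glands 3 of the 9 fell, among them Ebf2, which is in both lists, and 1 rose.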

How the data were processed

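RNA from 18 tissues was hybridised by the authors to Affymetrix whole-transcript arrays. The deposited values are log2 intensities per transcript cluster. The submitters' processing notes name RMA, Affymetrix Expression Console and Partek, and the methods name another Affymetrix console for normalization, so that the exact settings are not given in the sources used here. RMA adjusts every array to a common distribution, and levels are therefore relative to the other RNA on the array.

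Of 58803 clusters, 29266 had a gene name in the platform annotation, 27309 had a single symbol, and the cluster with the highest mean was kept for each of 27030 genes. Differences were tested with limma 3.58.1 in R 4.3.3, with group means over all 18 arrays, on log2 values without further normalization, and p values were adjusted by Benjamini-Hochberg over all 27030 genes (threshold 0.05). Fold changes are powers of 2 of the log2 changes. Tested on simulated data for tumors against normal glands, the fit over 27030 genes recovered 98 of 100 genes shifted by 1 log2 unit and 99 of 100 shifted by 2 units, and called 15 unchanged genes. The simulated noise was independent between genes and had the same SD in every group. Members moved together on an array and varied more in tumors, so these counts do not carry over to them. Reading of tables and counts used pandas 2.3.3.

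No batch is recorded, and 6 arrays per group limit the precision. Members, gene lists and tests were chosen with earlier results of these data known, so that lists are described by counts and medians without a test. Lowest, median and highest array values are given for the members with the largest and the smallest change between tumors and normal glands in each role, for those whose call differed, and for Adipoq, Lep, Plin1, Plin2, Cidec, Lpl, Pnpla2, Pparg and Cebpa. Of the further adipocyte and stroma lists, the 3 called genes with the largest change are named. Values of Orm1, Gpd1, Cebpb, Slc27a4 and Acly were added after they were seen. Alternatives were other centering, filters, priors, array weights, the 2 compared groups alone, a replicate block and leaving out arrays.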

Additional observations from a re-analysis of the deposited data

Results flagged for a closer look

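Tshr in tumor 5 stood apart from the rest of its group. Its log2 value was 6.34, while the other 5 tumors lay between 4.74 and 5.30, a gap of 0.648 of the range of the group, past the critical value of Dixon's test. It was the 1 case among the 102 groups of 6 arrays that were tested (34 members in 3 groups). Chance alone would flag about 1 in 20 of such groups, so 1 flag is fewer than chance gives. The other 5 tumors were below the detection level, and tumor 5 was the highest tumor in 18 members.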

How the results depend on the processing

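Every member kept its direction and its side of the threshold in both tumor comparisons under every alternative fit, with 32 members lower in each; the threshold of the methods, applied to the same fit, passed 23 against normal glands and 26 against hyperplastic glands. Leaving out any 1 array also gave 32 and 32. Between hyperplastic and normal glands the count called was 0, and became 3 in the fit on these 2 groups alone, which leaves tumors out of the spread, and 1 with array weights, for which the cause was not tested. The count of members that changed unlike Adipoq in that comparison became 3 in the fit on the 2 groups, and leaving out 1 array gave 17 to 23 against normal glands and 13 to 21 between tumors and hyperplastic glands.

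The labels number the samples alike in each group. Deviations of samples with the same number correlated above 0.1 in 1, 3 and 3 of 6 pairs. The highest correlation was 0.405, between tumor 5 and hyperplastic gland 5. Whether the numbers pair samples is therefore not settled. With the replicate block, 32, 32 and 0 members were called and 18, 17 and 0 changed unlike Adipoq, as without it.

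Between hyperplastic and normal glands 12 members near 0 changed sign, none of them called. Centering on reference genes gave -0.0396 for Lipe and -0.0024 for Cebpa. Centering on the array median gave 0.0078 for Cd36, 0.022 for Fabp4, 0.0029 for Dgat1, 0.0181 for Mgll and 0.0348 for Car3. Without tumor 3, tumor 6 and hyperplastic 3 (set apart by earlier results of these data), the values were 0.0404 for Cd36, 0.0193 for Fabp4, 0.0033 for Dgat1, 0.0239 for Pck1, 0.0757 for Mgll, 0.0679 for Pparg and 0.0203 for Car3. Leaving out 1 array gave -6e-04 to 0.1939 for Adipor2, -0.271 to 0.0103 for Aqp7, -0.0355 to 0.0203 for Car3, -0.1012 to 0.0404 for Cd36, -0.0361 to 0.164 for Cebpa, -0.1321 to 0.0185 for Dgat1, -0.0848 to 0.0312 for Fabp4, -0.0631 to 0.1569 for Lipe, -0.1451 to 0.0757 for Mgll, -0.342 to 0.0872 for Pck1, -0.0218 to 0.1809 for Plin1 and -0.1462 to 0.0679 for Pparg.

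Over all genes, centering moved the count that rose in tumors against normal glands to 3180 (reference genes) or 9327 (array median), against 5278, so the share of all genes called depends on the scale while the members' calls did not. Between hyperplastic and normal glands, 177 genes fell and 274 rose, against 522 and 1002 in the fit on the 2 groups, 822 and 1549 with array weights, 466 and 80 with reference genes, and 80 to 233 and 88 to 377 when 1 array was left out; 109 fell with array medians and 164 rose with a trended robust prior.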
